A study of Danio rerio with 3 samples.

Results

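NF-κB and STAT3 are transcription factors that carry signals from microbial products and inflammatory cytokines to the nucleus, and both switch on genes that hold them back. Toll-like receptors signal through the adaptor MyD88 to release NF-κB from its cytoplasmic inhibitors, the IκB proteins, and the gene for IκBα is itself a known target of NF-κB in mammals. Cytokines of the interleukin 6 family activate STAT3, which in the mammalian liver drives acute phase genes and also SOCS3, a protein that binds the cytokine receptors and stops the signal.

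Of these pathways, 9 zebrafish genes were followed on the arrays: the receptor tlr5b, the adaptor myd88, the NF-κB subunits rel and nfkb2, the IκBα genes nfkbiaa and nfkbiab, stat3, and the SOCS3 genes socs3a and socs3b. The 9 genes were chosen with earlier results of these data known. Every probe, control spots apart, whose RefSeq identifier belongs to 1 of these symbols was then taken, whatever its values. This gave 23 of the 43603 probes, and 9 of the 13443 genes that carry a symbol. A single probe stood for socs3a, and the other 8 genes had 2 to 4 probes each. Within a gene, probes are numbered by their mean intensity, which serves only as a name, and no probe's level is set against that of another.

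The arrays measured liver RNA of AB strain larvae at 15 dpf, and the control, HCD, and BBR groups had 1 array each, so that no comparison has a replicate check or a P value. All larvae were unfed until 5 dpf and then fed for 10 days. The control group received AP100 at 30 mg/100 fish/day, the HCD group received 180 mg/100 fish/day of AP100 with 4% cholesterol, and the BBR group received the HCD together with 5 μM berberine, a plant alkaloid. The HCD and control larvae thus differed in the amount of food as well as in cholesterol, and these cannot be told apart. How many livers made up each RNA sample is not given in the sources used here.

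Between 88.5% and 92.3% of the spots on an array were well above background, and the 23 probes were well above background on all 3 arrays, as were 87.1% of all probes. The control and BBR arrays shared slide 1 and a scan, while the HCD array was on slide 2, so differences of the HCD array from either of the others cannot be told apart from differences of slide. The 36 probes of 15 hepatocyte marker genes were well above background on every array, with summed intensities of 46321%, 46519%, and 52935% of the 75th percentile on the control, HCD, and BBR arrays. Markers of exocrine pancreas (25 probes, 60422% to 70503%), skeletal muscle (36 probes, 54969% to 60589%), and skin (38 probes, 51636% to 64446%) were also present throughout. Each of these sums was above the hepatocyte sum on every array. Markers of these tissues were thus measured in the RNA labelled liver, and which tissue gave them was not tested. All sums of markers keep outlier spots. Sums over different probes do not give the share of a tissue, and which cells gave the values of the 9 genes was not tested.

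Each intensity is given as a percent of the 75th percentile of its array, and each difference is a log2 difference of those values, in which 1 stands for 2-fold. The scanner software gives an error for every spot, and for a difference of the 23 probes this error had a median of 0.20 (range 0.20 to 0.40). It covers the measurement of a spot and not the spread between animals. Across the 6921 genes with several probes, the SD between probes of a gene was 0.32 for HCD minus control.

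On the HCD array, socs3b, rel, and nfkb2 were higher than on the control array by at least 2-fold at 4 of the 21 probes that could be compared (19.0%), against 3.55% of the 37112 probes compared on the whole array. None of the 21 was lower by at least 2-fold, against 4.01% of all probes. The median difference of the 21 probes was 0.54 (range -0.53 to 1.59), while that of all probes was -0.16, and 18 of the 21 were above the median of all probes. Between BBR and HCD, 0 of 22 probes were higher by at least 2-fold, against 4.38% of 38773 probes, and 0 were lower, against 1.3%. The median there was -0.07 (range -0.48 to 0.89), with 0.12 for all probes. Between BBR and control, 4 of 22 probes (18.2%) of socs3b and nfkb2 were at least 2-fold higher, against 3.72% of 39043 probes, and 0 were lower, against 1.32%, with a median of 0.50 beside -0.02 for all probes. The 3 comparisons share their arrays and are not independent of each other.

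**Figure D1:**
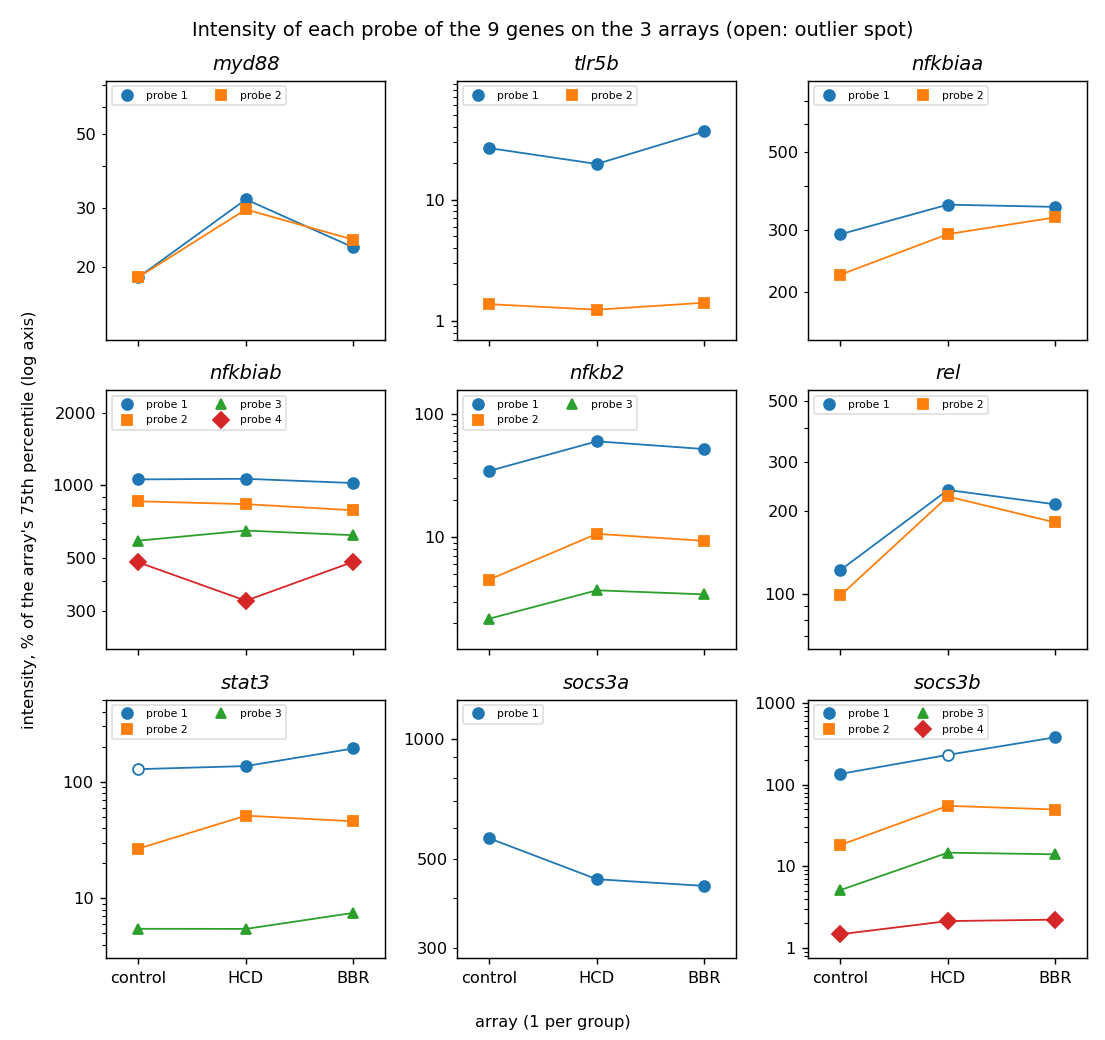
Intensity of each of the 23 probes on the control, HCD, and BBR arrays, as a percent of the 75th percentile of the array on a log axis, with 1 panel per gene and 1 line per probe. Open symbols are spots that the scanner software marked as outliers; the probes of rel, nfkb2, and myd88 were lowest on control and highest on HCD.

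Both probes of the receptor were lowest and both of the adaptor highest on the HCD array, though for tlr5b probe 2 this changed with the scaling. tlr5b, a receptor for bacterial flagellin, had values of 26.6% on control, 19.7% on HCD, and 36.5% on BBR at probe 1 (A_15_P625206). It was thus lowest on HCD, with a difference of -0.43 from control, and BBR was above HCD by 0.89, or 1.85-fold, the largest difference of the 22 probes between BBR and HCD. Probe 2 of tlr5b read 1.37%, 1.24%, and 1.41% in the same order, differences no larger than the spot error of 0.40, and its HCD minus control difference of -0.15 turned to 0.22 under quantile normalization and 0.20 under cyclic loess.

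myd88, the adaptor that links most toll-like and interleukin 1 receptors to their kinases, was highest on HCD at both probes. Probe 1 read 18.6% on control, 31.8% on HCD, and 22.8% on BBR, and probe 2 read 18.6%, 29.7%, and 24.1%. HCD was above control by 0.77 and 0.67, with a mean of 0.72 ± 0.07 (SD, n = 2 probes). BBR was below HCD by more than the spot error at both probes, with differences of -0.48 and -0.30. Among the 9 genes, myd88 had the lowest mean difference between BBR and HCD, -0.39 ± 0.13 (SD, n = 2 probes), and its values on BBR stayed above those on control by 0.30 and 0.37.

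The NF-κB subunits were higher on both HCD and BBR than on control at every probe. rel encodes c-Rel, a subunit that carries its own activation domain. Its values were 121.7%, 237.5%, and 210.6% on control, HCD, and BBR at probe 1, and 98.4%, 224.9%, and 181.1% at probe 2 (A_15_P103186). HCD exceeded control by 0.97 at probe 1, the difference just under the 2-fold threshold, and by 1.19, or 2.28-fold, at probe 2, the difference just over it. Of all probes compared, 3.8% and 2.31% had a larger rise. BBR was below HCD by 0.17 and 0.31 on the log2 scale and above control by 0.79 and 0.88. The first of the differences from HCD was within its spot error.

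nfkb2 encodes p100, which binds and holds NF-κB subunits until it is cut to the active p52. Probe 2 (A_15_P130971) read 4.53% on control, 10.6% on HCD, and 9.33% on BBR, so that HCD was 2.35-fold and BBR 2.06-fold above control. With normexp background correction, these log2 differences of 1.23 and 1.04 were 0.86 and 0.69, both under the threshold. Probe 1 read 34.5%, 59.9%, and 51.9%, and probe 3 read 2.18%, 3.70%, and 3.43%. The 3 probes thus had the same order of arrays, with HCD minus control differences of 0.93 ± 0.26 (SD, n = 3 probes) and BBR minus HCD differences of -0.17 ± 0.05, close to the spot error in size.

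None of the 6 probes of the inhibitors of NF-κB differed by 2-fold in any comparison. nfkbiaa, 1 of the IκBα genes of zebrafish, read 291.7%, 354.4%, and 349.2% on control, HCD, and BBR at probe 1 and 223.7%, 292.1%, and 325.9% at probe 2. Control was the lowest array at both probes, with HCD minus control differences of 0.28 and 0.38 and BBR minus control differences of 0.26 and 0.54.

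nfkbiab, the other IκBα gene, had HCD minus control differences of 0.01, -0.04, and 0.14 at probes 1 to 3, within the spot error of 0.20. Probe 1 read 1060%, 1066%, and 1024% on control, HCD, and BBR. Probe 4 (A_15_P733966) stood apart, with 479.3%, 332.0%, and 481.9%, lowest on HCD by 0.53 from control and 0.54 from BBR. The mean over the 4 probes was -0.11 ± 0.29 (SD, n = 4 probes) for HCD minus control and -0.02 ± 0.08 for BBR minus control, and the probes of this gene did not have 1 sign in either comparison.

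**Figure D2:**
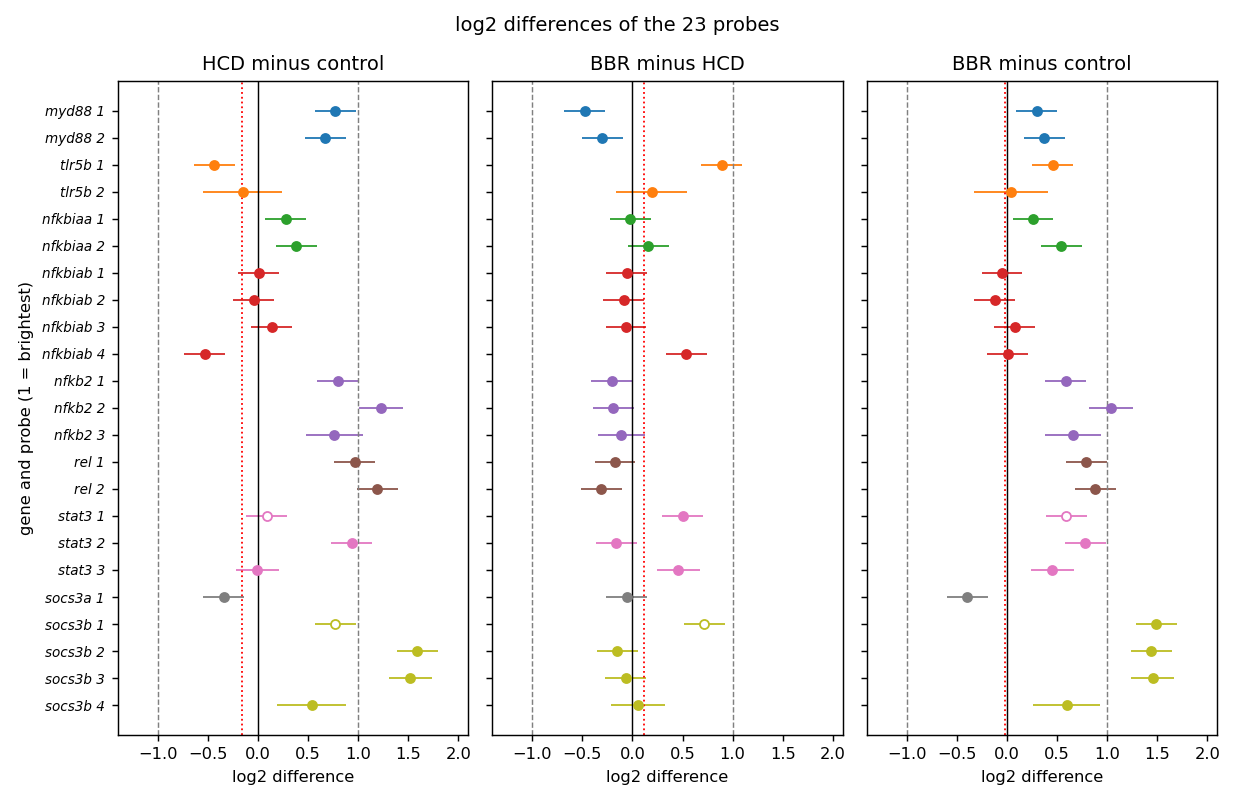
Log2 differences of the 23 probes for HCD minus control, BBR minus HCD, and BBR minus control, with bars of 1 spot error from the scanner software; open points rest on an outlier spot and were not counted. Dashed lines mark 2-fold and the dotted red line the median of all probes (-0.16, 0.12, and -0.02); points past the right dashed line are socs3b, rel, and nfkb2 on the left, none in the middle, and socs3b and nfkb2 on the right.

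The probes of stat3, the transcription factor itself, did not have the same pattern. Probe 2 (A_15_P150321) read 26.7%, 51.2%, and 45.8% on control, HCD, and BBR, with HCD above control by 0.94. Probe 3 read 5.47%, 5.46%, and 7.49%, with no difference beyond the spot error between HCD and control and BBR above both by 0.46 and 0.45. Probe 1 read 128.2%, 136.2%, and 192.9%, and its spot on the control array was marked as an outlier, so only its BBR minus HCD difference of 0.50 was counted. The mean HCD minus control difference of 0.47 ± 0.67 (SD, n = 2 probes) was smaller than the spread between the probes. BBR was above control at both probes that could be compared, by 0.78 and 0.45.

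The pair of SOCS3 genes, whose mammalian counterpart is induced by STAT3 and blocks it, lay on opposite sides of control. socs3b had the largest differences from control of the 9 genes. Probe 2 (A_15_P720151) read 18.3% on control, 55.1% on HCD, and 49.7% on BBR, and probe 3 (A_15_P131021) read 5.12%, 14.7%, and 14.0%. HCD was 3.01-fold and 2.87-fold above control (log2 1.59 and 1.52), and 0.94% and 1.11% of all probes had a larger rise. BBR was 2.72-fold and 2.74-fold above control and differed from HCD by only -0.15 and -0.07, within the spot error.

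The other probes of socs3b were also lowest on control. Probe 1 (A_15_P116605) read 135.8%, 232.1%, and 380.9%, and its HCD spot was marked as an outlier. Its BBR value was 2.81-fold above control (log2 1.49). Probe 4 read 1.47%, 2.13%, and 2.22%, with HCD above control by 0.54 and spot errors larger than at the other probes of the gene. Over the probes counted, socs3b had a mean of 1.22 ± 0.59 (SD, n = 3 probes) for HCD minus control, -0.05 ± 0.10 (n = 3 probes) for BBR minus HCD, and 1.24 ± 0.43 (n = 4 probes) for BBR minus control. The single probe of socs3a read 563.9% on control, 445.5% on HCD, and 428.7% on BBR. It was highest on control, with differences of -0.34 and -0.40 for HCD and BBR, and HCD and BBR differed by less than the spot error. Of all probes compared, 35.0% and 15.5% were lower still than these differences from control.

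Of the 21 probes usable on all 3 arrays, 12 probes of 7 genes were lowest on control and highest on HCD, an order that 14.8% of 35412 such probes of the whole array had. Control was the lowest array for 14 probes, HCD for 4, and BBR for 3, against 26.8%, 47.6%, and 25.6% of all. The probes lowest on HCD were both of tlr5b, nfkbiab probe 4, and stat3 probe 3. In size, 12 of the 21 differences between HCD and control exceeded 2 spot errors (57.1%, and 39.9% of all probes measured on both arrays), as did 5 of 22 between BBR and HCD (22.7%, and 31.8% of all) and 12 of 22 between BBR and control (54.5%, and 27.5% of all). Between BBR and HCD, 19 of the 22 differences were within 0.5 of 0 (86.4%, and 73.9% of all). Of the 8 genes with several probes, 6 had the same sign at all probes counted for HCD minus control, and nfkbiab and stat3 did not.

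**Figure D3:**
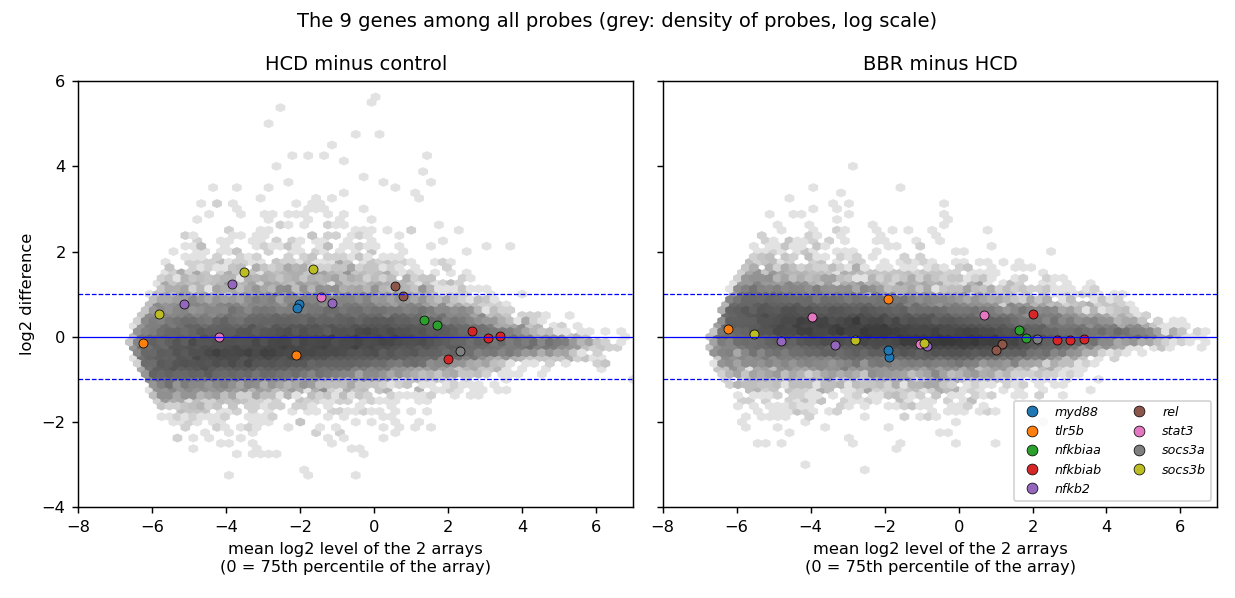
Log2 difference of each probe against its mean log2 level on the arrays compared, for HCD minus control (left) and BBR minus HCD (right); grey shows the density of all probes measured on both arrays and coloured points the 9 genes. The median of all probes ran from -0.36 among the dimmest probes to -0.06 among the brightest on the left and from 0.34 to 0.00 on the right; 4 probes of socs3b, rel, and nfkb2 are above the upper dashed line (2-fold) on the left, inside the cloud of all probes, and none on the right.

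The differences of all probes moved with their intensity. With the probes split by intensity into 5 equal bins, from dimmest to brightest, the median of HCD minus control was -0.36, -0.27, -0.15, -0.05, and -0.06, and that of BBR minus HCD was 0.34, 0.23, 0.11, -0.01, and 0.00. The part of this trend in the differences of single genes was not tested. Cyclic loess fits the differences between arrays against intensity. Under it, the probes of the 9 genes at least 2-fold higher on HCD than on control were 6 in place of 4. Those of the whole array were 5.34% in place of 3.55%. With normexp, nfkb2 probe 2 fell under 2-fold (0.86), and 2.23% of the whole array was higher.

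The genes most like socs3b in their values were sought among 22392 probes of 12295 genes with a symbol that were well above background on all 3 arrays. Likeness was the distance from socs3b probe 2 in the HCD minus control and BBR minus HCD differences, over 3 arrays, and 27 probes were within 0.2. The nearest were cyba, a subunit of the phagocyte NADPH oxidase, with differences of 1.58 and -0.14, si:ch211-39i2.2 with 1.58 and -0.09, the caspase gene casp3b with 1.62 and -0.24, the cone opsin opn1mw3 with 1.62 and -0.25, and hadhaa with 1.69 and -0.20. The last belongs to mitochondrial fatty acid oxidation.

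The other genes of the pathways were read from 8 lists, chosen with earlier results of these data known. Of all probes, 3.55% were at least 2-fold higher and 4.01% lower on HCD than on control. For BBR against HCD these shares were 4.38% and 1.3%, and for BBR against control 3.72% and 1.32%. Upstream of NF-κB, 0 of 14 toll-like receptor probes differed by 2-fold between HCD and control (median 0.26). Between BBR and HCD, 2 of 15 were higher by at least 2-fold, namely tlr1 at 1 of its probes (1.38, and 0.88 at the other) and a dim probe of tlr21, by at least 2.29-fold. That tlr1 probe was dim too, at 1.52% on HCD and 3.98% on BBR. Of the adaptors and kinases, 2 of 23 probes were at least 2-fold higher on HCD than on control, both of the TNF receptor tnfrsf1a (1.18 and 1.08), with a list median of -0.10. On BBR against HCD, 2 of 26 were higher, 1 each of the ubiquitin ligase traf6 (1.32) and the second TNF receptor tnfrsf1b (1.30). These were dim, at 2.50% and 3.26% on HCD. Their HCD minus control differences were -0.83 and -0.93, and their BBR minus control differences 0.49 and 0.37. The other probes of these genes differed by 0.21 and -0.06 between BBR and HCD. A further probe of tnfrsf1b was too dim to give a difference.

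Among the other NF-κB and IκB proteins, nfkbie, another IκB gene, was the single gene past 2-fold. It read 99.9% on control, 234.6% on HCD, and 186.0% on BBR at 1 probe, where HCD was above control by 1.23, and its other probe gave 0.81. This was 1 of the 13 probes compared, with a median of 0.20, and 0 of 13 differed by 2-fold between BBR and HCD (median -0.17). Of the other inhibitors of NF-κB, 2 genes with 6 probes were on the array and none differed by 2-fold, with medians of 0.22 for HCD minus control and 0.11 for BBR minus HCD.

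Around STAT3, stat4 and stat1b were the JAK and STAT genes past 2-fold between HCD and control. stat4 read 26.8% on control, 121.7% on HCD, and 82.1% on BBR, which put HCD above control by 2.18 and BBR below HCD by 0.57 on the log2 scale. stat1b, a mediator of interferon signals, read 180.0%, 84.1%, and 363.3% at the probe with the larger change, with a difference of -1.10 for HCD minus control and BBR above HCD by 2.11, and its other probe gave -0.75 and 1.99. stat2 was above HCD on BBR by 1.15 at 1 of its 3 probes, beside 0.82 and 0.06 at the others. At the first of these, HCD minus control was -0.81 and BBR minus control 0.34. Of the JAK and STAT probes together, 1 of 20 was higher and 1 lower on HCD than on control (median -0.26), and 3 of 20 were higher on BBR than on HCD (median 0.07).

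Of the list of ligands and receptors around STAT3, 3 of 19 probes were at least 2-fold higher and 2 lower on HCD than on control (median 0.43). Those higher were the probe of il22 and both probes of il22ra2, a soluble receptor. The cytokine il22, whose receptor acts through STAT3 in epithelia and hepatocytes, read 2.60%, 21.0%, and 8.86% on control, HCD, and BBR, 3.02 above control on HCD and 1.25 below HCD on BBR on the log2 scale. il22ra2 was higher on HCD by 1.83 and 1.46, and BBR was within 0.13 of HCD at both probes. The granulocyte receptor csf3r (-1.34) and il6 (-1.06) were lower on HCD than on control. Higher on BBR than on HCD were il6 by 1.44 and the leptin gene lepb by 1.02. The il6 probe was dim, at 2.78% on control, 1.34% on HCD, and 3.62% on BBR. That of lepb was dim too, at 1.48% on HCD, and was not well above background on control. The part of the trend with intensity in these differences was not tested. Of the 19 probes, 2 were higher and 1 lower on BBR than on HCD (median 0.29).

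Of the other SOCS genes and inhibitors of JAK-STAT signalling, 0 of 40 probes were higher and 1 was lower on HCD than on control (median -0.23), and 5 of 40 were higher on BBR than on HCD (median 0.23). The probe lower on HCD was that of socs9 (-1.17), which was above HCD on BBR by 1.27. pias4b, which codes for a SUMO ligase of the PIAS family, was higher on BBR than on HCD by 1.49 at its measured probe and socs5a by 1.17. The pias4b probe was dim, at 1.06% on HCD and 2.96% on BBR. HCD minus control was -0.70 for pias4b and -0.78 for socs5a, and BBR minus control was 0.79 and 0.38.

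The list of genes known to be induced through NF-κB or STAT3 had 14 of 52 probes at least 2-fold higher on HCD than on control, from 8 of 28 genes, and 1 lower, with a median of 0.07. The inducible nitric oxide synthase nos2a had 14.0% on control, 360.7% on HCD, and 237.7% on BBR at the probe measured on all arrays, a difference of 4.69 for HCD minus control. Its other probes were not well above background on control and gave HCD at least 2.44-fold and at least 5.02-fold higher. The cytokine il1b read 3.75%, 36.6%, and 12.8% at the probe with the larger difference, 3.28 above control on HCD, and 1.11 at its other probe. The TNF gene tnfb was 6.04-fold and 3.99-fold higher on HCD than on control at its probes. The transcription factor gene cebpd, a known target of STAT3, was the single gene lower by at least 2-fold, at -1.05, with -0.89 and -0.61 at its other probes.

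Between BBR and HCD, 5 of 56 probes of the same list were higher and 1 lower (median 0.00). hamp, the hepcidin gene of iron control, was higher on BBR by 1.45, 1.13, 1.13, and 0.82 at its 4 probes, so that 3 of them passed 2-fold. At the last 3 of these probes, HCD minus control was -0.91, -0.83, and -0.75, and BBR minus control was 0.22, 0.30, and 0.07. The spot of the first on HCD or control was an outlier. The complement gene c3a.1 passed at 1 of its 3 probes compared (1.14, beside 0.46 and 0.06), and the probes of birc5a, an inhibitor of apoptosis, gave 1.44 and -0.99. The probe lower on BBR was il1b, by 1.52 on the log2 scale, and its other probe gave -0.53. BBR was at least 2-fold above control at 13 of 56 probes and below it at 0. In each of the other lists, 0 probes were lower on BBR than on control. Those higher were 5 of 15 for toll-like receptors (median 0.57) and 7 of 19 around STAT3 (median 0.53). They were 3 of 20 for JAK and STAT genes and 1 of 41 for SOCS and other JAK-STAT inhibitors. Of the adaptors and kinases, 0 of 26 were higher, with 0 of 15 for NF-κB and IκB proteins and 0 of 6 for NF-κB inhibitors. The genes mmp9, mmp13a, fgb, csf3r, and bcl3 stand in more than 1 of the lists of pathways and markers.

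**Figure D4:**
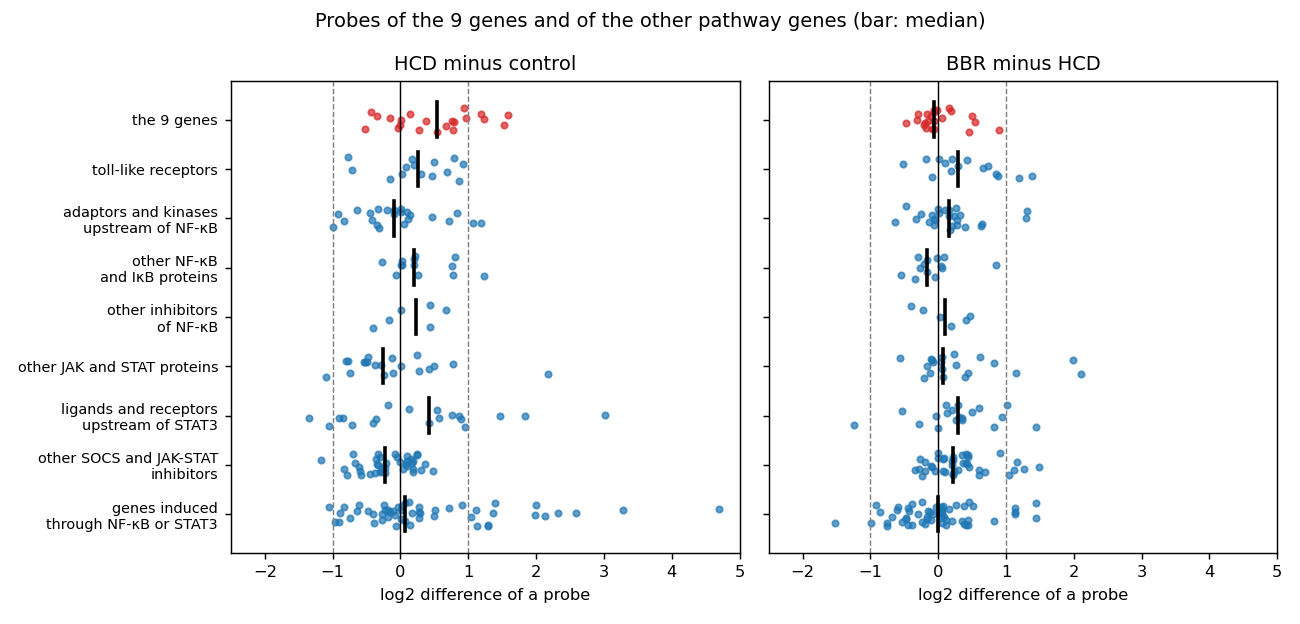
Log2 differences of the probes of the 9 genes (red) and of 8 lists of other pathway genes (blue), for HCD minus control (left) and BBR minus HCD (right), with 1 point per probe, black bars at the medians, and dashed lines at 2-fold. The median of the 9 genes is 0.54 on the left and -0.07 on the right, and the points farthest to the right on the left panel are nos2a (4.69), il1b (3.28), and il22 (3.02).

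Markers of some blood cells also differed between the arrays. The shares of all probes at least 2-fold higher and lower were 3.55% and 4.01% for HCD against control. They were 4.38% and 1.3% for BBR against HCD, and 3.72% and 1.32% for BBR against control. The 26 probes of 13 macrophage marker genes were well above background on every array and summed to 4249% of the 75th percentile on control, 7338% on HCD, and 7592% on BBR. Of those compared, 6 of 23 were at least 2-fold higher on HCD than on control (median 0.64), 1 of 24 on BBR than on HCD (median 0.40), and 13 of 25 on BBR than on control (median 1.00). In liver RNA, more cells of a type and more RNA per cell cannot be told apart. The 14 neutrophil probes of 7 genes summed to 2192%, 2319%, and 2340%. Of those compared, 2 of 11 were at least 2-fold higher and 1 lower on HCD than on control (median 0.43). Those higher were both of mpx (1.58 and 1.53), and the lower was of csf3r (-1.34). At the other probes compared, mpx, lyz, npsn, mmp9, and mmp13a were above control on HCD and nccrp1 below it. Erythrocyte markers were higher on HCD than on control at 6 of 14 probes, from 4 of 7 genes (median 0.81), and lower on BBR than on HCD at 3 of 14 (median -0.70). No globin probe was among these. For HCD minus control the globin probes compared were split, with -0.52 for hbaa2, -0.20 for hbba1, and 0.52 and 0.61 for hbba2. The 13 probes of T and B cell markers summed to 63.2%, 55.5%, and 62.8%, none differed by 2-fold between HCD and control, and cd8a was not well above background on any array. Stellate cell and fibroblast markers summed to 7737%, 9953%, and 6992%, and pdgfrb was not well above background on any array. Of their probes, 4 of 15 were higher on HCD than on control (median 0.34). On BBR, 3 of 16 were lower than on HCD (median -0.21). The probes past 2-fold were all of the collagen genes col1a1a and col1a1b. The compared probes of desma, acta2, and rgs5a were lower on HCD than on control. Intestine markers (16 probes) summed to 10572% to 11024% and endothelial markers (14 probes) to 135% to 148%. Each list had 1 probe past 2-fold between HCD and control, higher for intestine and lower for endothelium. Of the 14 endothelial probes, 13 were well above background on control, 9 on HCD, and 13 on BBR. The endothelial probe past 2-fold, of cdh5, was not well above background on HCD, so its difference is a bound. The part of these cells in the differences of the 9 genes was not tested.

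**Figure D5:**
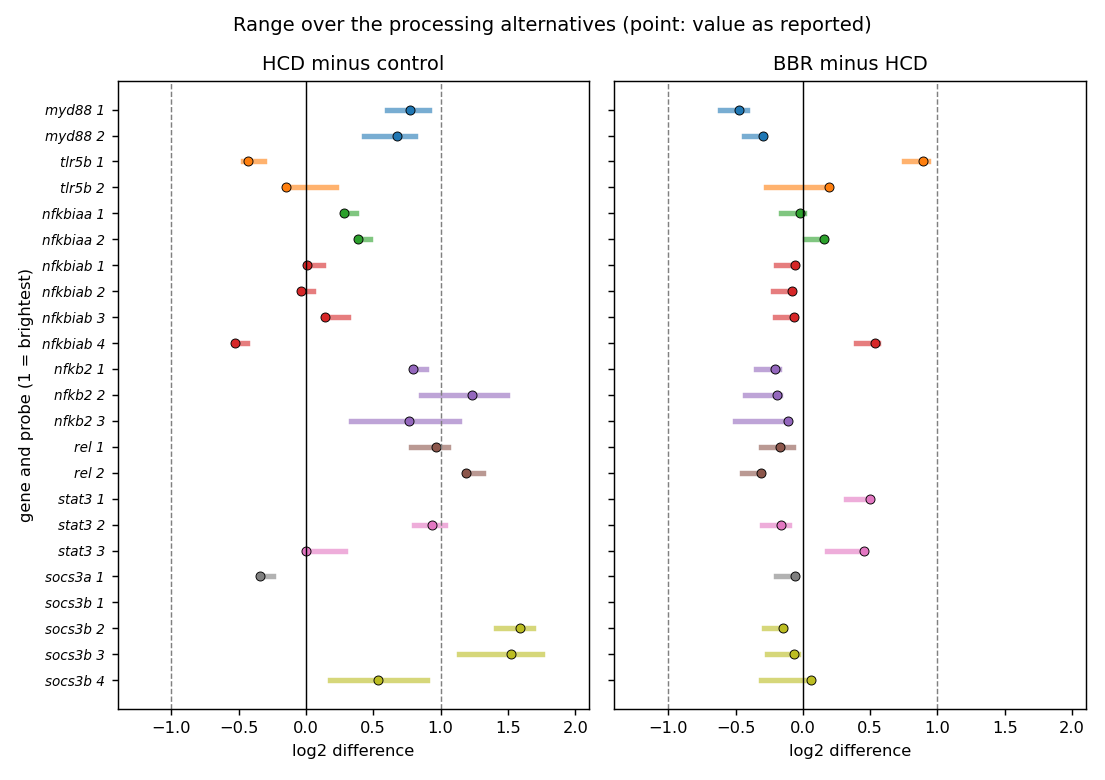
Range of each probe's log2 difference over 9 ways of processing, or 8 for stat3 probe 1 (bars), with the reported value as a point, for HCD minus control (left) and BBR minus HCD (right); socs3b probe 1 has no value since its HCD spot was marked as an outlier. On the left, socs3b probes 2 and 3 and rel probe 2 are past 2-fold throughout, and nfkb2 probe 2 runs from 0.86 to 1.49; on the right, no probe reaches 2-fold.

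The call for HCD against control depended on which probes stood for a gene. With 1 probe per gene, the brightest, 0 genes passed 2-fold, against 3.63% of 26004 probes, among them every probe without a symbol. Probe 1 of socs3b and that of stat3 rested on outlier spots and were not counted, and rel and nfkb2 gave 0.97 and 0.80. With so few genes, 0 cannot be told apart from that share. With the outlier spots kept, socs3b probe 1 gave 0.77 and stat3 probe 1 gave 0.09.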

How the data were processed

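Groups were taken from the sample labels, and feeding details from the labels and methods. The authors deposited, for each spot, the processed intensity of a single-colour Agilent zebrafish array, background-subtracted by Feature Extraction (11.5.1.1 in the file headers, 10.7 in the submitters' processing notes), with marks for background and outliers. The authors also deposited log2 values, which were recovered to within 0.01 at 99.97% or more of the probes of each array by scaling the processed intensities to their 75th percentile and taking log2. Precision is limited by there being 1 array per group.

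Control spots were removed, replicate spots averaged as log2 intensity, and each array scaled to its 75th percentile over 43603 probes. A comparison took the probes that 1 or both of its arrays measured well above background, without outlier spots. Where a single array measured the probe, the other was set to the lowest signal well above background on that array, or to its own signal if larger, which gives a lower bound. The 2-fold threshold was that of the methods. Probes were named by RefSeq accession through a gene table of GRCz12tu, in which 13553 of 28397 identifiers matched. Since the arrays were designed on Zv9, no coordinates are given, and probe sequences were not used here. The members and gene lists were chosen with earlier results of these data known.

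Named were all 9 genes and, per pathway list, comparison, and direction, up to 3 probes with the largest differences among those past 2-fold, with values of their other probes. The 5 genes nearest to socs3b were taken by Euclidean distance. Of cell type lists, counts, sums, and medians are given, and genes are named where the members of a list disagreed or were not well above background. Alternatives covered scaling (array median, percentile over detected probes, quantile, cyclic loess), normexp on the spot median (offset 50, chosen after the data were seen, since the mean was not used here), the deposited values, filters, outlier spots, thresholds, and 1 probe per gene. limma 3.58.1 in R 4.3.3 and Python 3.11.15 were used. On simulated data for HCD against control, 200 of 200 probes changed 4-fold among 39223 were recovered, with 27 false calls. These data held only the control array's values, spot errors, and a constant shift per array. They had no slide effect, trend with intensity, or spread between animals, and 4-fold is more than any of the 9 genes changed. The simulation thus checks the code and not the 2-fold calls.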

Additional observations from a re-analysis of the deposited data

How the results depend on the processing

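The count of probes at least 2-fold higher on HCD than on control was 4 as reported and 3 to 6 under the other scalings, background correction, filters, and the deposited log2 values, and the count lower was 0 in each. The share of all probes higher ran from 2.23% with normexp to 5.34% with cyclic loess, and the share lower from 1.23% with normexp to 6.16% without filter and floor. The median difference of the 9 genes' probes was 0.28 to 0.81 for HCD minus control, -0.21 to -0.06 for BBR minus HCD, and 0.28 to 0.54 for BBR minus control, over all alternatives that gave one. At a 1.5-fold threshold, 10 probes were higher on HCD than on control, 1 on BBR than on HCD, and 10 on BBR than on control, beside 9.30%, 16.1%, and 10.2% of all probes. At 3-fold, these were 1 for HCD against control and 0 for BBR against control, beside 0.95% and 1.21% of all probes. With the brightest probe per gene, 0 were higher on HCD and 1 on BBR than on control. For HCD, rel and nfkb2 then gave 0.97 and 0.80, and socs3b and stat3 rested on outlier spots. The shares beside these were 3.63% of 26004 and 4.03% of 27398 probes, with every probe that lacks a symbol kept. The sign of the difference was kept under all alternatives at 18 of 21 probes for HCD minus control, 19 of 22 for BBR minus HCD, and 19 of 22 for BBR minus control.

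The scalings moved the array as a whole, though not each probe by the same amount. The median of all probes shifted by 0.12 under quantile normalization and 0.15 under cyclic loess for HCD minus control, and by -0.13, -0.12, and -0.12 under array medians, quantile normalization, and cyclic loess for BBR minus HCD. The higher share of all 2-fold calls between HCD and control was 46.9% as reported, 59.9% with array medians, 70.2% with quantile normalization, 75.7% with cyclic loess, and 64.5% with normexp. Between BBR and HCD, it was 77.2%, 58.3%, 48.2%, 49.6%, and 64.8% in that order. The cause was not tested. Under some of these settings rel probe 1 (1.06), stat3 probe 2 (1.03), and nfkb2 probe 3 (1.04 and 1.14) also passed 2-fold for HCD minus control, and nfkb2 probe 2 fell short with normexp (0.86), and with array medians for BBR minus control (0.99).

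No paired analysis was possible because each group has 1 array. No array was left out in turn, as this would empty a group. Normexp on the mean intensity was not run. The dimmest probes, tlr5b probe 2, socs3b probe 4, and nfkb2 probe 3, had the largest spot errors, and over the settings their HCD minus control differences ran from -0.15 to 0.22, 0.18 to 0.90, and 0.33 to 1.14.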
